A study of Mus musculus with 19 samples.

Results

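Replicated H3K27ac gains at methylated CpGs are regions of the genome that carried a peak of acetylated histone H3 lysine 27 in both samples of excited neurons and in neither sample of untreated neurons, although their CpGs were methylated in the untreated culture. A region was a peak of the replicate Bic/4AP list that overlapped a peak of the first Bic/4AP list by 1 bp or more and no peak of either untreated list, that held at least 3 CpGs listed in all 3 bisulfite libraries, and whose mean methylation level in the untreated library was 0.20 or more. The methylation level is the deposited fraction at a CpG, from 0 to 1. The regions were thus chosen by the 4 H3K27ac lists and the untreated methylation level, which are given here as descriptions. Of the 55035 peaks in the replicate Bic/4AP list, 439 met the rule. The same steps left 536 replicated gains under 0.20 and 34 with too few CpGs.

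The neurons were hippocampal cells of mouse embryos at embryonic day 17, kept for 10 days in vitro. One group had no drug. One was silenced with TTX, tetrodotoxin, which blocks the sodium channels of the action potential, for a time that the sources used here do not give. One was excited for 3 h with bicuculline and 4-aminopyridine (Bic/4AP), a GABA-A receptor antagonist together with a potassium channel blocker. No genetic change is named for any group. RNA-seq (3 libraries per treatment) and ChIP-seq were made from ICR mice, with 2 untreated and 2 Bic/4AP samples for H3K27ac and 2 untreated samples for H3K4me1; bisulfite sequencing (1 library per treatment) was made from C57BL/6 mice, so methylation and acetylation were not measured in the same animals. There was no H3K27ac list for TTX. The labels do not tie replicates to separate cultures; the spread behind the p-values may therefore be technical.

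Acetylation of H3 lysine 27 is written by the acetyltransferases CBP and p300 and marks promoters and enhancers in use. Monomethylation of H3 lysine 4 (H3K4me1) marks enhancers, in use or poised. Methylation of CpGs covers most of the mammalian genome; CpG-rich promoters are as a rule free of it, and distal enhancers in use often have a reduced level. In neurons, excitation switches on genes of rapid response such as those of the AP-1 factors, and acetylation is gained at many enhancers within hours.

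The lists differed in length. The first untreated list held 4846 peaks and the untreated replicate list 49701; the first Bic/4AP list held 7721 and the Bic/4AP replicate list 55035. Of the replicate Bic/4AP peaks, 6746 overlapped the first Bic/4AP list and 1009 of these had no untreated peak. Between the longer lists alone, 28227 Bic/4AP peaks had no untreated peak and 21733 untreated peaks had no Bic/4AP peak, so a peak seen in 1 list of the pair was common in both directions. The reverse rule, with peaks in both untreated lists and in neither Bic/4AP list, gave 134 replicated losses, of which 97 were at 0.20 or more. Bisulfite libraries listed 16.5 M CpGs untreated, 17 M with Bic/4AP and 16.7 M with TTX, 15 M of them in all 3, without the coverage behind a value. RNA libraries gave back 5.36 to 9.55 M reads untreated, 4.10 to 4.34 M with Bic/4AP and 9.29 to 12.2 M with TTX in the genes whose reads came out whole.

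Most of the regions lay away from promoters, and some of the few that touched one held both unmethylated CpGs at the start and methylated CpGs beside it. Of the RefSeq promoter windows, which run from 250 bases before to 50 after a start site, 24 overlapped 18 of the regions, in whole or in part. Below are 5 of these windows (RefSeq, build GRCm38.p6, strand of the gene, CpGs in capitals), chosen after their values were seen because they show the states found: an unmethylated start at the edge of a region and a methylated window inside the same region (Rab15), an unmethylated start with a cyclic AMP response element (Lekr1), a start of intermediate methylation (Nap1l5), and a methylated start (Gm46758).
Rab15 start, chr12:76822475-76822774, minus strand: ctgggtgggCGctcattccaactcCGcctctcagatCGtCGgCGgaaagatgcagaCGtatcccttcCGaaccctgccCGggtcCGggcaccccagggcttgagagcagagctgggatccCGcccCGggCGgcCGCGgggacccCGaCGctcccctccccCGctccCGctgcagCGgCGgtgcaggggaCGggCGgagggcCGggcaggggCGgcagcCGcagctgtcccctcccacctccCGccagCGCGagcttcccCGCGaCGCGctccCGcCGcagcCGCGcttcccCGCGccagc
Rab15 inner start, chr12:76818325-76818624, minus strand: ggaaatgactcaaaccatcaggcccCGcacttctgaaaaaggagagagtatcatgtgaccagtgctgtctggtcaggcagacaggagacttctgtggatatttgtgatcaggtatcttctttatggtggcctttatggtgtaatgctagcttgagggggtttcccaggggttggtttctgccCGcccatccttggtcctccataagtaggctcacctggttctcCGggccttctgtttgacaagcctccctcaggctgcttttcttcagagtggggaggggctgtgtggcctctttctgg
Lekr1 start, chr3:65665978-65666277, plus strand: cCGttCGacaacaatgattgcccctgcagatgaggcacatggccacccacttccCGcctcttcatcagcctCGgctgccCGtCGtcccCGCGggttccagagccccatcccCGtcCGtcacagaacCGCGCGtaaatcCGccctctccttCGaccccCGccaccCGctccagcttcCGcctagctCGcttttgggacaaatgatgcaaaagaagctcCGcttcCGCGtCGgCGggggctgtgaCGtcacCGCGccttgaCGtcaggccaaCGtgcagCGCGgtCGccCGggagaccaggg
Nap1l5 start, chr6:58907077-58907376, minus strand: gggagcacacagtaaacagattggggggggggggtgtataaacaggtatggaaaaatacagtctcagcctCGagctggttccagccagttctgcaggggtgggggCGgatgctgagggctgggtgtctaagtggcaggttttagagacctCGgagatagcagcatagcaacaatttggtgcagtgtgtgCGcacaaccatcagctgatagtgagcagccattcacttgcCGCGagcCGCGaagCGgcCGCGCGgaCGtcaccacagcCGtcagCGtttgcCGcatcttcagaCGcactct
Gm46758 start, chr2:116916691-116916990, minus strand: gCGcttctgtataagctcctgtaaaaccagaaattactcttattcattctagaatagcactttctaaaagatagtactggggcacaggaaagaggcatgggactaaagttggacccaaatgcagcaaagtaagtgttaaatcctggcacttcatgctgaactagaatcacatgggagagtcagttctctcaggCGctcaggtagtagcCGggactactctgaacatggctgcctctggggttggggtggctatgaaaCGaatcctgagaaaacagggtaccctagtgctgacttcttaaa

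Over the window of the Rab15 start, which encodes a small GTPase of endosomal recycling, the mean level was 0.0122 untreated, 0.0156 with Bic/4AP and 0.00278 with TTX over 24 CpGs. Of its 300 bases 96 lie in the region, and the 4 CpGs there were at 0.0278, 0 and 0. Over the inner Rab15 window it was 0.844, 0.80 and 0.754 over 3 CpGs, all in the region. The region spans 5728 bp, chr12:76816843-76822570, and its mean of 0.410, 0.390 and 0.395 over 108 CpGs is a mixture: 43 of its CpGs were under 0.20 and 26 at 0.80 or more in the untreated library. The Lekr1 window was at 0.0106, 0.0110 and 0.00758 over 33 CpGs, inside a region at 0.237, 0.241 and 0.234. The Gm46758 window was at 0.932, 0.873 and 0.924 over 4 CpGs. The Nap1l5 window was at 0.623 untreated, 0.341 with Bic/4AP and 0.553 with TTX over 13 CpGs, all in the 199 bases that lie in its region.

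Of the 20 windows with at least 3 CpGs in all 3 libraries, 15 were under 0.20 in the untreated library, 2 from 0.20 to under 0.80, and 3 at 0.80 or more. Of those 15 windows 10 extend beyond the region, with 10 to 169 of their 300 bases in it. Counting only bases in a region, 15 windows kept at least 3 such CpGs, of which 10 were under 0.20, 2 between and 3 at 0.80 or more. The 9 of these 20 windows that lie wholly in a region were 5 under 0.20, 1 between and 3 at 0.80 or more. The unmethylated windows included those of Rimkla (0.00814 untreated), Cfap58 (0.00413), P2rx4, an ATP-gated channel (0.00840), and Adpgk, an ADP-dependent glucokinase (0, also over the 12 CpGs in the 148 bases that lie in its region). An AP-1 motif, TGACTCA or its other strand TGAGTCA, was found in 2 of the 24 windows, those of inner Rab15 and Nomo1, which is 8.33% against 5.20% of the 32851 windows in the table. The cyclic AMP response element TGACGTCA was found in 1 window, that of Lekr1, which is 4.17% against 1.79%. These matches are descriptions of letters in a window.

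**Figure D1:**
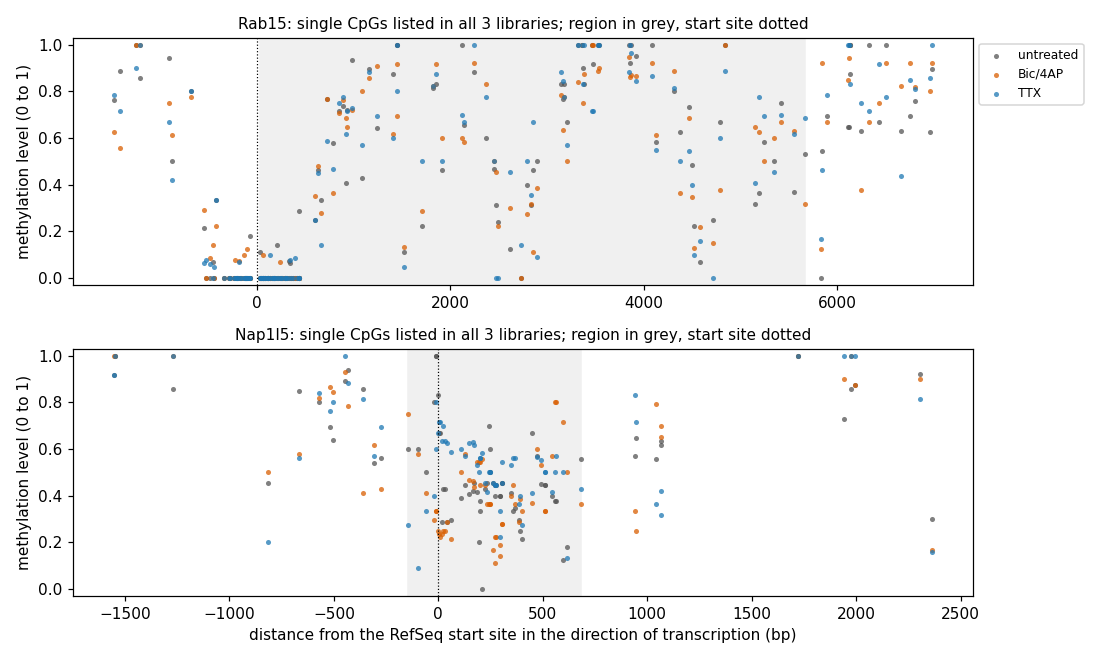
Methylation level (0 to 1) of single CpGs listed in all 3 libraries against the distance in bp from the RefSeq start site, at Rab15 (top) and Nap1l5 (bottom); grey, the H3K27ac region; dotted line, the start site; colours, the 3 libraries. At Rab15 the CpGs next to the start lie near 0 in all 3 libraries and those farther inside the region spread up to 1, while at Nap1l5 most CpGs of the region lie between 0.20 and 0.80.

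At Nap1l5 most CpGs of the region were of intermediate level. Nap1l5, a nucleosome assembly protein family gene known to be imprinted in the mouse, lies in its region, chr6:58906234-58907275, with 54 CpGs at a density of 5.66 listed CpGs per 100 bp, the highest of the 439. Of the 54 CpGs, 47 were between 0.20 and 0.80 in the untreated library, 48 with Bic/4AP and 51 with TTX. The region's mean was 0.452 untreated, 0.396 with Bic/4AP and 0.501 with TTX, 1 library each. Its RNA was 80.3, 68.4 and 81.4 RPKM (reads scaled to gene length and library size) in the untreated libraries, 136, 131 and 135 with Bic/4AP, and 59.1, 58.3 and 65.8 with TTX. The 3 groups did not overlap, and the log2 change with Bic/4AP was 0.80 (SE 0.07, adjusted p = 1.4e-06, limma), 0.24 under quantile and 0.18 under cyclic loess normalization.

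The regions lay mostly inside or near genes but not at their starts. A gene span was overlapped by 262 regions (59.7%), 335 had a gene within 20 kb and 399 within 100 kb, which linked them to 367 genes. A RefSeq start site lay within 1 kb of 25 regions (5.69%), and the median distance to the nearest was 34044 bp; 16 regions on chromosome 18 had no start site in the table. The replicated gains under 0.20 were a contrast: 79.5% lay within 1 kb of a start site and 92.4% overlapped a gene. The share that overlapped a gene was also above 59.7% in all methylated peaks of the replicate Bic/4AP list (68.6%), in those found in no other H3K27ac list (71.0%) and in methylated peaks of all 4 lists (66.0%). Peaks of all 4 H3K27ac lists at 0.20 or more (899 peaks, called constant peaks here) had 22.1% within 1 kb of a start site. Peaks of the replicate Bic/4AP list at 0.20 or more as a whole (37394) had 4.84%, so the share in the 439 was near that of methylated peaks at large. No test was made of these shares, and the level that chose the sets is itself tied to CpG-rich starts. Without the first Bic/4AP list the share was 3.51%, and without the untreated replicate list it was 11.6%.

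The median region was 1628 bp wide (424 to 17824 bp) and held 13 CpGs common to the libraries. Its density was 0.943 listed CpGs per 100 bp, against 1.06 in constant peaks and 5.36 in the gains under 0.20. The authors' peak score, used here to describe peaks inside a list, had a median of 323 in the replicate list (50.2 to 3100) and 62.5 in the first list (50.1 to 202), where no peak in any list scored below 50. The nearest untreated peak lay a median of 19765 bp away. It lay within 5 kb of 81 regions (18.5%) and within 1 kb of 35, the nearest at 23 bp. Every autosome and the X chromosome held some of the regions, from 39 on chromosome 1, 33 on chromosome 5 and 31 on chromosome 10 down to 4 on the X.

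Few of the regions carried H3K4me1 before stimulation. An H3K4me1 peak of the untreated neurons overlapped 41 regions (9.34%), 25 in the first list and 24 in the second, with 8 in both. Those 8 all overlapped a gene: Hecw2, Tbpl1, Nuak1, Nt5dc3, Map3k9, Unc13b, Cacna1a and Cmtm4. Unc13b (Munc13-2) primes synaptic vesicles, Cacna1a is the pore of P/Q-type calcium channels, and Map3k9 is a kinase upstream of JNK. The share was 47.8% in constant peaks, 32.0% in replicated losses at 0.20 or more, 17.3% in all methylated peaks of the replicate Bic/4AP list, 7.11% in those found in no other H3K27ac list (18816), and 0.746% in the gains under 0.20. Constant peaks were wider, with a median of 4147 bp, and a wider peak meets another peak more often; in the central 500 bp the shares were 4.33% of the 439, 17.6% of constant peaks and 20.6% of losses. Without the untreated replicate H3K27ac list the share was 28.3% (of 1701 regions), without the first Bic/4AP list 7.16% and without the Bic/4AP replicate list 4.95%. The 41 regions with H3K4me1 had a median level of 0.764 untreated, 0.764 with Bic/4AP and 0.773 with TTX, and the 398 without had 0.774, 0.780 and 0.783.

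**Figure D2:**
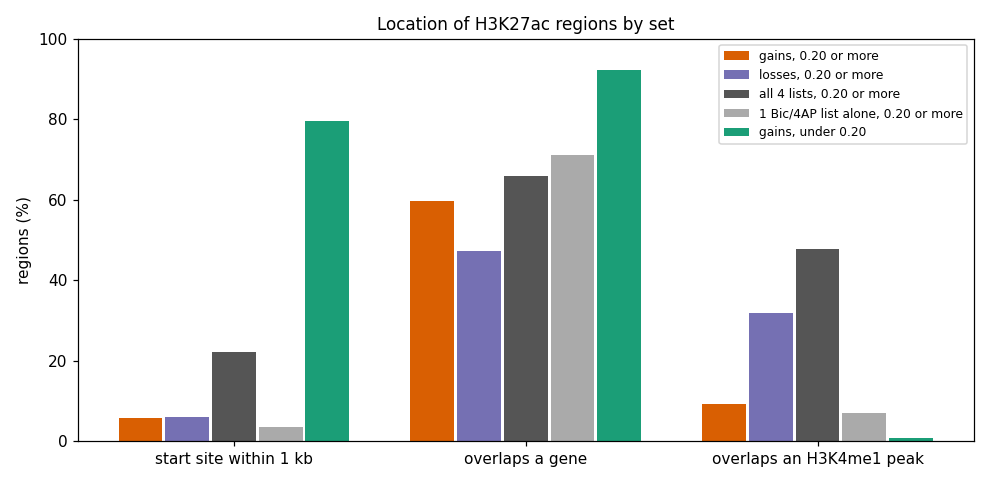
Share of regions (%, bars from 0) within 1 kb of a RefSeq start site, overlapping a gene span and overlapping an H3K4me1 peak of untreated neurons, for the 439 replicated gains at 0.20 or more and 4 other sets. The gains at 0.20 or more have 5.69% at start sites against 79.5% of the gains under 0.20, and 9.34% with H3K4me1 against 47.8% of peaks found in all 4 lists.

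The regions were methylated to a similar level in the 3 libraries. The median of the region means was 0.772 untreated, 0.779 with Bic/4AP and 0.781 with TTX, and the mean was 0.712, 0.712 and 0.713. The untreated level chose the regions, so only Bic/4AP against TTX is free of the rule. In that comparison the median difference was -6.1e-06, with 219 regions higher with Bic/4AP and 220 lower. The standard deviation (SD) of the difference over regions was 0.0509, and 11 regions were higher and 15 lower by 0.1 or more. Bic/4AP minus untreated had a median of -0.00087, with 215 regions higher and 224 lower, and TTX minus untreated 0.00072, with 222 higher and 217 lower. With 1 library per treatment and no coverage, no test was possible, and the spread over regions is not a replicate error.

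The spread narrowed with the number of CpGs averaged. The SD of Bic/4AP minus TTX was 0.0684 in the 161 regions with fewer than 10 CpGs, 0.0418 in the 154 with 10 to 19, and 0.0300 in the 124 with 20 or more. Of the 26 regions that differed by 0.1 or more, 21 had fewer than 10 CpGs. In the last class 2 regions were lower with Bic/4AP by 0.1 or more and none was higher: Nap1l5 and Golga4, where the level was 0.594 untreated, 0.527 with Bic/4AP and 0.631 with TTX over 25 CpGs. All methylated peaks of the replicate Bic/4AP list spread as widely, with an SD of 0.0593 and a median of 9 CpGs.

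**Figure D3:**
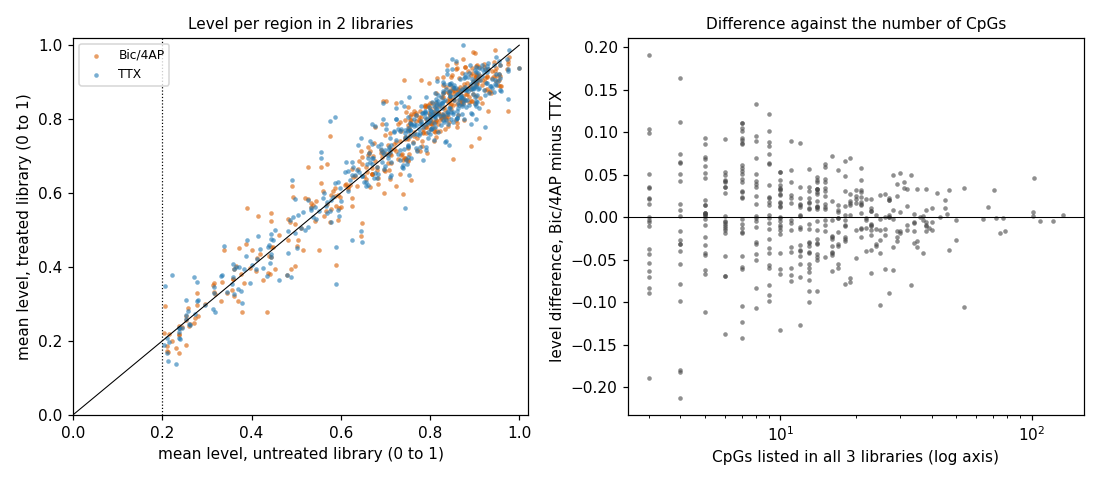
Left, mean methylation level (0 to 1) of each of the 439 regions with Bic/4AP or TTX against the untreated library, with the line of equal levels and the 0.20 limit of the rule dotted. Right, Bic/4AP minus TTX per region against its number of CpGs (log axis). Points lie along the line of equal levels, and the spread around 0 narrows as CpGs increase, from an SD of 0.0684 under 10 CpGs to 0.0300 at 20 or more.

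Among themselves the regions ran from partly to fully methylated. In the untreated library 74 were from 0.20 to under 0.50, 175 from 0.50 to under 0.80, and 190 at 0.80 or more. In all 3 libraries 153 were at 0.80 or more and 64 under 0.50. CpG density fell across these classes, with medians of 1.39, 0.925 and 0.812 listed CpGs per 100 bp, and start sites within 1 kb were found at 16, 7 and 2 regions. The H3K4me1 share was 10.8%, 8.57% and 9.47%. Just inside the limit the 5 lowest regions were at 0.204 to 0.213 untreated; just outside it the 5 highest replicated gains were at 0.187 to 0.198.

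Single CpGs told the same of each library. Of the 7561 CpGs in the regions, 16.8% were under 0.20 untreated, 16.9% with Bic/4AP and 17.3% with TTX, and 50.6%, 50.2% and 50.6% were at 0.80 or more. A run of at least 5 neighbouring CpGs under 0.20 was present in all 3 libraries in 34 regions (7.74%), in 1 or 2 libraries in 19, and in none in 386 (87.9%). In constant peaks at 0.20 or more, 44.2% held such a run in all 3 libraries. Those peaks had a median of 38 shared CpGs against 13 in the regions, which leaves more room for a run. Replicated losses at 0.20 or more, also with a median of 13, had 7.22% with a run in all 3 libraries and 83.5% in none. Of the 34 regions with a run, 11 had a start site within 1 kb. The mean of a region could also be set by its edges, which the rule allows; over the segment that both Bic/4AP lists share, a median of 675 bp, 342 regions had 3 or more CpGs, with medians of 0.795 untreated, 0.797 with Bic/4AP and 0.792 with TTX. Of these, 319 were at 0.20 or more and 23 under it.

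The dip against the surroundings was shallow. The rule kept only regions with an untreated mean of 0.20 or more, which limits how deep a dip could be. In the 418 regions with CpGs in the first 1 kb on their sides, the untreated median was 0.767 inside and 0.818 beside them, with a median difference of -0.0452, and 256 regions were lower inside. Against 4 to 5 kb away the difference was -0.0765, with 292 of 422 lower inside. With Bic/4AP the differences were -0.0391 and -0.0726, and with TTX -0.0317 and -0.0764. Constant peaks at 0.20 or more were lower inside by more, with untreated differences of -0.208 and -0.222. The 1 kb bins of the genome at 0.20 or more (1643068) had a median of 0.870 untreated.

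**Figure D4:**
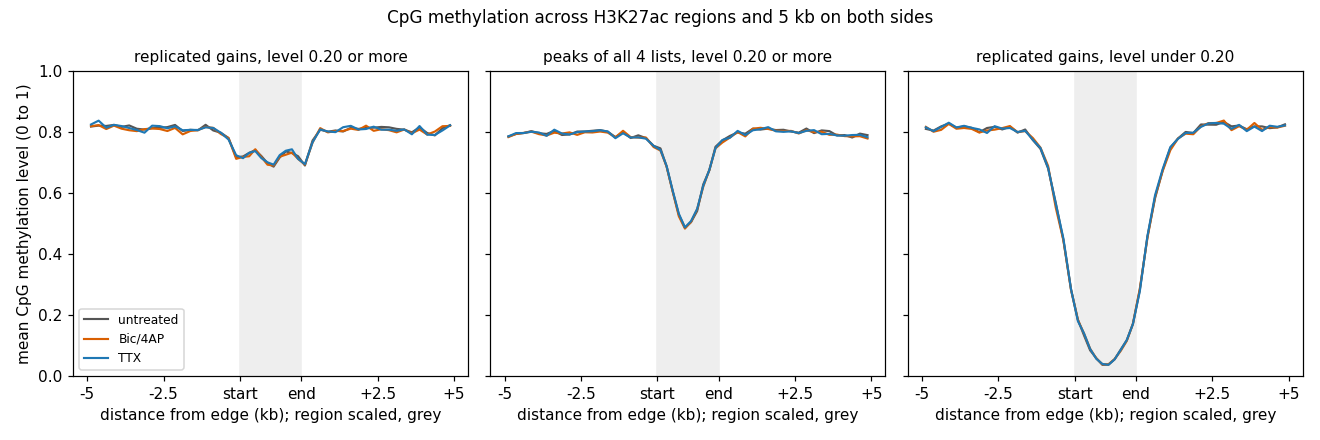
Mean CpG methylation level (0 to 1) across regions scaled to 1 width (grey) and 5 kb on both sides, for the 439 replicated gains at 0.20 or more, constant peaks at 0.20 or more and gains under 0.20; lines, the 3 bisulfite libraries. The lines of the 3 libraries nearly coincide in each panel. The untreated median difference against 4 to 5 kb away is -0.0765 in the first, -0.222 in constant peaks and -0.824 in gains under 0.20. The untreated level defined the sets, so the deep dip of the gains under 0.20 follows from the rule.

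The 6 regions with the highest authors' score in the replicate list all lay inside genes. They were in Cacna1a (score 3100), Msi2, Rgs7, R3hdm1, Ryr3 and Ppfia2 (2368). The Cacna1a region, chr8:84493044-84500213, was at 0.803 untreated, 0.791 with Bic/4AP and 0.810 with TTX over 75 CpGs. The Ryr3 region, chr2:112851680-112869503, was the widest of all at 17824 bp and was at 0.801, 0.830 and 0.798 over 71 CpGs. Msi2, an RNA-binding protein of the Musashi family, had the least methylated of the 6, chr11:88581435-88589535, at 0.376, 0.382 and 0.336 over 102 CpGs. In the first list these regions scored 51.5 to 69.1, close to its lowest scores.

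By a rule on regions with 10 or more CpGs, those with the largest Bic/4AP minus TTX differences were described. The 6 highest, from 0.0622 to 0.0890, were linked to 9430020K01Rik, Zfp385b, Tvp23b, Clasp2, Dip2c and Nlgn1. The 6 lowest, from -0.133 to -0.0894, were linked to Ppp2r2b, Tenm4, Nap1l5, Golga4, Tet2 and Spock1. The Tet2 region, chr3:133516525-133518673, lies in the gene of an enzyme that oxidises 5-methylcytosine, and was at 0.851 untreated, 0.692 with Bic/4AP and 0.792 with TTX over 13 CpGs. The Ppp2r2b region rested on 10 CpGs, at 0.694, 0.710 and 0.843. Each of these is the end of a spread with 1 library per treatment.

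Several genes held more than 1 region. Rgs7, a regulator of G protein signalling in neurons, held 4, and Rapgef5, Adtrp and Abhd2 were linked to 3 each; in all, 27 genes were linked to 2 or more, taking 59 regions. The 4 Rgs7 regions were at 0.828, 0.577, 0.830 and 0.841 untreated, at 0.871, 0.595, 0.913 and 0.874 with Bic/4AP, and at 0.850, 0.582, 0.877 and 0.818 with TTX. Each Rgs7 region except the last was lowest in the untreated library, and all 4 were highest with Bic/4AP, by 0.0137 to 0.0559 over TTX. There was 1 library per treatment, and regions of 1 gene are not replicates. Over the 439 regions this difference had an SD of 0.0509, with 219 regions higher and 220 lower with Bic/4AP. The untreated libraries had 37.7, 36.2 and 38.9 RPKM of Rgs7 RNA and the Bic/4AP libraries 32.7, 34.3 and 36.4, groups that overlapped (log2 change -0.12, standard error (SE) 0.05, adjusted p = 0.0591, limma); the gene was called lower under quantile (-0.24) and cyclic loess normalization (-0.26).

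RNA was not used by the rule. Of the 367 linked genes, 319 passed the filter of 1 RPKM in at least 3 libraries, and with Bic/4AP against untreated 123 were higher (38.6%), 112 lower (35.1%) and 84 did not pass an adjusted p of 0.05 (limma). Over all 14782 genes tested, 29.5% were higher and 42.6% lower. The median log2 change was 0.07 in the linked genes and -0.12 in all genes. As deposited, the genes linked to the gains under 0.20 were 38.9% higher and 37.5% lower, and those linked to constant peaks at 0.20 or more 40.2% and 36.4%. Under quantile normalization, which moved the median of all genes from -0.12 to 0.06, the linked genes were 44.2% higher and 32.9% lower against 38.8% and 30.9% of all genes; under cyclic loess, which moved it to 0.02, they were 43.6% and 34.8% against 35.8% and 35%. The genes of the gains under 0.20 were then 40.4% higher and 25.2% lower under quantile and 40.4% and 28.5% under cyclic loess, and those of the constant peaks 35% and 35.3%, and 33.1% and 40.9%. Changes of 2-fold or more were found in 15 linked genes upward and 34 downward, 4.70% and 10.7% of those tested, against 3.31% and 17.7% of all genes. That split turned under the other scalings, to 29 upward and 18 downward under quantile (9.09% and 5.64%, all genes 8.69% and 9.89%). It was 26 and 19 under cyclic loess (8.15% and 5.96%, all genes 7.33% and 10.8%). At 2-fold the downward share was below that of all genes under each scaling, and the upward share was slightly above it. Without the fold limit the upward share was above that of all genes under each scaling. The downward share was then below it as deposited, above it under quantile (32.9% against 30.9%) and near it under cyclic loess (34.8% against 35%). None of these differences was tested.

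With TTX against untreated, which shares the untreated libraries with the comparison above, 114 linked genes were higher (35.7%) and 93 lower (29.2%), against 40.6% and 23.5% of all genes. Under quantile normalization the split turned, with 94 higher and 134 lower (29.5% and 42.0%) against 37.3% and 31.9% of all genes. With cyclic loess it was 78 and 137 (24.5% and 42.9%) against 30.7% and 35.4%. Changes of 2-fold or more were found in 15 linked genes upward and 10 downward, 4.70% and 3.13% of those tested, against 6.08% and 6.59% of all genes. This split turned too, to 14 upward and 19 downward under quantile (4.39% and 5.96%, all genes 5.83% and 6.69%). It was 10 and 20 under cyclic loess (3.13% and 6.27%, all genes 3.66% and 7.6%). Whether more linked genes were called higher or lower with TTX thus depended on the scaling. Without the 2-fold limit, a smaller share of linked genes than of all genes was higher and a larger share lower under each scaling. With that limit, both the upward and the downward share were below those of all genes under each scaling. These differences in shares were not tested.

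The counts with Bic/4AP against untreated were also split by where the region lay, beside 29.5% higher and 42.6% lower of all genes as deposited, 38.8% and 30.9% under quantile and 35.8% and 35% under cyclic loess normalization. Of the 217 tested genes overlapped by a region, 73 were higher and 83 lower (33.6% and 38.2%), and under the other scalings 85 and 82, and 85 and 86. Of the 54 with a region up to 20 kb outside, 29 were higher and 15 lower (53.7% and 27.8%), then 29 and 10, and 27 and 12. Of the 50 with a region farther away, 21 were higher and 16 lower (42% and 32%), then 27 and 14 under both. Of the 39 tested genes whose region carried H3K4me1, 19 were higher and 12 lower (48.7% and 30.8%), then 19 and 13, and 19 and 14. Of the 23 tested genes with 2 or more regions, 1 was higher and 9 lower (4.35% and 39.1%, the latter near the share of all genes), then 6 and 12 under both. By untreated level, the genes at regions from 0.20 to under 0.50 had 27 higher and 20 lower of 66, those from 0.50 to under 0.80 had 44 and 59 of 133, and those at 0.80 or more had 52 and 39 of 134. Under quantile normalization these became 37 and 15, 51 and 52, and 56 and 45, and under cyclic loess 34 and 18, 50 and 54, and 58 and 46. These splits were made after the data were seen and were not tested.

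Markers of other cells moved with the treatments. The summed RPKM of 12 choroid plexus genes was 456 to 685 untreated, 33.3 to 38.7 with Bic/4AP and 13.1 to 17.9 with TTX, and 12 of 12 were lower in both comparisons. Summed neuron markers were 804 to 966, 1269 to 1324 and 802 to 889, with 10 of 12 higher and 1 lower with Bic/4AP, a split that was 6 and 4 under quantile and 4 and 7 under cyclic loess normalization. Summed astrocyte markers were 174 to 181, 249 to 284 and 206 to 230. The 8 progenitor markers summed to 71.9 to 79.5 untreated, 158 to 180 with Bic/4AP and 106 to 108 with TTX, and the 8 oligodendrocyte lineage markers to 23.0 to 29.7, 22.2 to 28.7 and 43.0 to 52.1. The 10 vascular and mural markers summed to 33.5 to 41.4, 37.9 to 53.3 and 46.9 to 57.1. No marker of these lists was at 0 in every library, and microglia markers summed to 7.10 to 12.4. None of the choroid plexus, astrocyte, progenitor, oligodendrocyte lineage, vascular and mural or microglia markers was linked to a region, and the part of other cells in the RNA changes of the linked genes was not tested. In bulk samples, fewer cells of a type and less RNA per cell cannot be told apart.

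Activity genes were linked to 4 of the regions. Of 36 measured rapid activity genes, of which 33 were higher and 1 lower with Bic/4AP, 3 were linked: Dusp6, Ier5 and Per1. Of 45 late activity genes, 39 of them higher, 1 was linked, the sorting receptor gene Sorcs3. Of 75 excitatory and 26 inhibitory synapse genes, 3 and 2 were linked, beside 319 of the 14782 genes tested. The region near Dusp6, a phosphatase that inactivates ERK, lay 10961 bp from it at chr10:99251051-99252270 and was at 0.855 untreated, 0.868 with Bic/4AP and 0.853 with TTX over 12 CpGs. Dusp6 RNA was 16.9, 21.3 and 19.1 RPKM untreated, 56.4, 57.8 and 61.6 with Bic/4AP and 27.8, 27.4 and 28.7 with TTX. The 3 groups did not overlap (Bic/4AP log2 change 1.58, SE 0.07, adjusted p = 9.1e-09, limma on log2(RPKM + 1), a scale that understates changes of low genes).

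The regions of Per1 and Ier5 were among the least methylated. That of Per1, a clock repressor, lay 1005 bp from the gene at chr11:69110970-69113251 and was at 0.239, 0.234 and 0.206 over 42 CpGs. Per1 RNA was 19.2, 21.7 and 21.9 RPKM untreated, 35.7, 39.4 and 36.0 with Bic/4AP and 18.6, 18.6 and 17.7 with TTX. The region of Ier5, an immediate early response gene, lay 43122 bp away at chr1:155051289-155053245, at 0.281, 0.269 and 0.310 over 25 CpGs. The nearest RefSeq start site lay 3279 bp from this region, much nearer than Ier5. Ier5 RNA was 7.16, 7.11 and 6.93 RPKM untreated, 14.5, 14.7 and 12.8 with Bic/4AP and 9.36, 9.75 and 8.72 with TTX. Both genes were higher with Bic/4AP in all 3 libraries than in any untreated one (adjusted p = 5.3e-07 and 3.6e-06, limma).

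**Figure D5:**
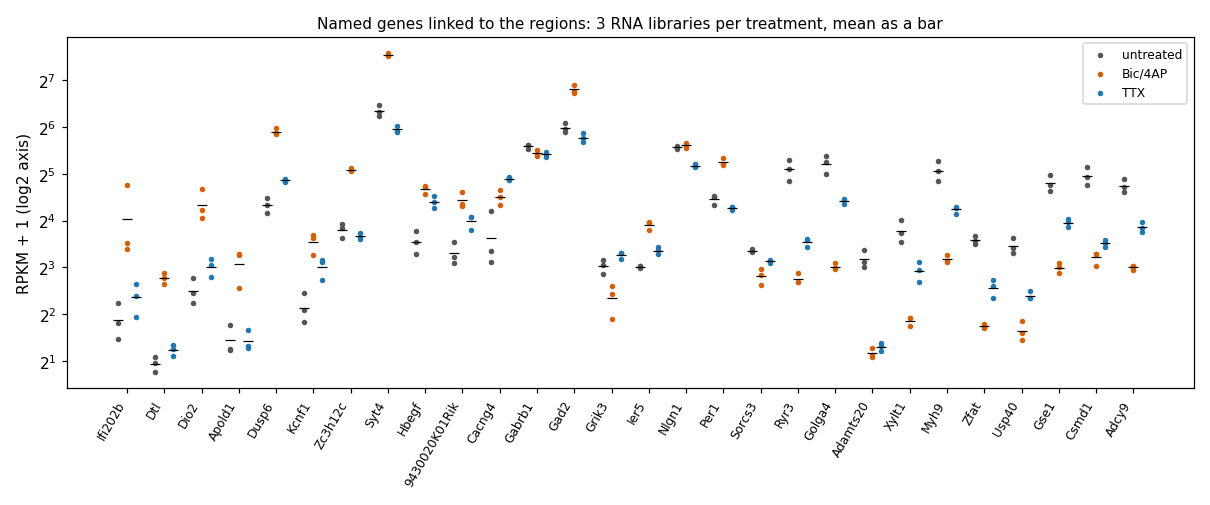
RPKM + 1 (log2 axis) of the named linked genes in the 9 RNA libraries; points, libraries; short bars, means; colours, treatments. From left, the 10 largest rises with Bic/4AP, the activity and synapse genes, and the 10 largest falls. Dusp6 and Syt4 rise clear of both other groups, and Ryr3 and Golga4 are lowest with Bic/4AP.

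The 10 largest rises among linked genes with a mean of 5 RPKM in some group were Ifi202b, Dtl, Dio2, Apold1, Dusp6, Kcnf1, Zc3h12c, Syt4, Hbegf and 9430020K01Rik, with log2 changes from 1.14 to 2.05. Only the regions of Ifi202b and 9430020K01Rik overlapped the gene, and those linked to Kcnf1 and Zc3h12c lay 30865 and 71156 bp away. Syt4, a synaptotagmin of dense-core vesicles, was at 87.2, 73.8 and 78.8 RPKM untreated, 183, 184 and 191 with Bic/4AP and 58.5, 59.7 and 63.9 with TTX. Its region lay 17099 bp away, at 0.764, 0.813 and 0.802 over 12 CpGs. Dio2, the deiodinase that activates thyroid hormone, was at 3.72, 5.83 and 4.49 RPKM untreated, 17.9, 15.6 and 24.4 with Bic/4AP and 8.01, 7.28 and 5.97 with TTX. Its region lay 41313 bp away, at 0.859, 0.936 and 0.885 over 3 CpGs. In both genes the Bic/4AP libraries stood above all others, with log2 changes of 1.21 for Syt4, 0.62 under quantile and 0.53 under cyclic loess normalization, and 1.83, 2.19 and 2.34 for Dio2.

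Hbegf, an EGF receptor ligand, was at 10.6, 12.7 and 8.80 RPKM untreated and rose with both treatments, to 22.7, 25.5 and 25.6 with Bic/4AP and 22.0, 20.1 and 18.3 with TTX. Kcnf1, a modifier subunit of potassium channels, was at 3.26, 4.44 and 2.55 untreated, 11.4, 11.9 and 8.61 with Bic/4AP and 7.88, 7.71 and 5.67 with TTX, and also rose with both (adjusted p = 2.5e-05 and 0.0013, limma). Zc3h12c, of a family of CCCH zinc finger ribonucleases, was at 12.9 ± 1.45 RPKM untreated and 33.1 ± 0.90 with Bic/4AP (SD, n = 3). Dtl, a substrate receptor of a cullin ubiquitin ligase, was at 0.918 ± 0.209 and 5.83 ± 0.590. Apold1 was at 1.71 ± 0.604 and 7.43 ± 2.18, and Ifi202b, an interferon-inducible gene, at 2.68 ± 0.990 and 15.4 ± 9.45, where 1 Bic/4AP library at 26.3 stood above the other two at 9.47 and 10.4. The Ifi202b region was at 0.902 untreated, 0.944 with Bic/4AP and 0.901 with TTX over 6 CpGs.

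The 10 largest falls were Ryr3, Golga4, Adamts20, Xylt1, Myh9, Zfat, Usp40, Gse1, Csmd1 and Adcy9, with log2 changes from -2.33 to -1.74. The regions linked to Xylt1 and Zfat lay 70670 and 76560 bp from the genes, and the others overlapped their gene. Ryr3, a calcium release channel of the endoplasmic reticulum, was at 33.5, 27.9 and 38.1 RPKM untreated, 5.45, 5.44 and 6.42 with Bic/4AP and 11.2, 11.01 and 9.80 with TTX. Its acetylated region was the widest of the 439 and its RNA fell (log2 change -2.33, SE 0.11, adjusted p = 1.1e-08, limma). Golga4, a golgin of the trans-Golgi, was at 36.9, 30.8 and 40.6 untreated, 6.92, 7.58 and 6.76 with Bic/4AP and 21.0, 20.8 and 19.5 with TTX. Adcy9, an adenylyl cyclase, was at 25.7 ± 2.55 untreated and 7.0 ± 0.304 with Bic/4AP (SD, n = 3), and its region, chr16:4395181-4397088, was at 0.741, 0.695 and 0.720 over 16 CpGs and carried H3K4me1. Cacna1a, which held the region with the highest score, also fell, from 47.7, 38.6 and 53.5 RPKM untreated to 18.4, 19.4 and 20.2 with Bic/4AP. Its log2 change was -1.22 with Bic/4AP and -0.97 with TTX (adjusted p = 6.6e-06 for TTX, limma). All 10 of the largest falls were also called lower with TTX under each scaling. Their median log2 change as deposited was -1.86 with Bic/4AP and -0.95 with TTX. It was -1.40 and -1.17 under quantile and -1.41 and -1.255 under cyclic loess normalization.

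The synapse genes linked to regions did not move one way. Gad2, which makes GABA, rose from 67.3, 58.6 and 60.9 RPKM untreated to 109, 105 and 118 with Bic/4AP (log2 change 0.82, SE 0.07, adjusted p = 8.5e-07, limma; 0.29 under either other scaling), and its region, chr2:22679646-22684109, was at 0.733, 0.791 and 0.767 over 9 CpGs. Cacng4, an AMPA receptor auxiliary subunit, rose from 9.20, 17.4 and 7.61 to 21.8, 24.4 and 19.2 with Bic/4AP and to 28.1, 29.4 and 28.9 with TTX. The region linked to Cacng4 lay 18281 bp from the gene. It had the lowest untreated mean of the 439, 0.204, with 0.221 with Bic/4AP and 0.189 with TTX over 21 CpGs. Gabrb1, a GABA-A receptor subunit, was at 48.4, 45.3 and 47.7 untreated and 40.8, 44.3 and 42.0 with Bic/4AP (log2 change -0.15, SE 0.05, adjusted p = 0.0217, limma), a call lost without untreated library 1 (adjusted p = 0.0654), Bic/4AP library 1 (adjusted p = 0.0914) or Bic/4AP library 3 (adjusted p = 0.0559).

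Grik3, a kainate receptor subunit, fell from 6.26, 7.88 and 7.25 RPKM to 5.07, 4.36 and 2.74, with an adjusted p of 0.00261 (limma) that was lost under quantile and loess scaling. Sorcs3 fell from 9.07, 9.48 and 9.25 to 5.14, 6.84 and 6.18, with an adjusted p of 0.000961 (limma) that was also lost under both, and its log2 change turned from -0.55 to 0.03 under quantile normalization. Nlgn1, a postsynaptic adhesion protein with 2 regions, was at 46.6, 45.5 and 47.2 untreated and 48.0, 46.1 and 49.2 with Bic/4AP, which did not pass (log2 change 0.04, SE 0.05, adjusted p = 0.468, limma); it was called lower under quantile (-0.24) and cyclic loess normalization (-0.22). Its regions were at 0.866, 0.886 and 0.877 over 13 CpGs and at 0.904, 0.863 and 0.801 over 15. Tet2, the only one of 14 DNA methylation genes linked to a region, rose from 22.2, 24.4 and 24.2 RPKM to 32.5, 32.6 and 32.2 with Bic/4AP (adjusted p = 1.5e-05, limma) and fell with TTX to 17.7, 18.5 and 17.7 (adjusted p = 0.000119, limma). Map2, the only one of 12 neuron markers linked, was at 105 ± 12.5 RPKM untreated and 145 ± 4.19 with Bic/4AP (SD, n = 3), a log2 change of 0.46 that turned to -0.09 under quantile and -0.26 under cyclic loess normalization.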

How the data were processed

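Of 19 mouse samples, 18 were used: 9 RNA-seq, 3 bisulfite and 6 ChIP-seq samples, grouped by the labels; the input sample was not used here. Per the submitters' processing notes, the build was mm10 and the tools included MACS 1.4.1, SAMtools 0.1.19, Bowtie2 2.2.4 and TopHat. Per the labels, the bisulfite libraries used post-bisulfite adaptor tagging. For methylation the authors deposited 1 fraction (0 to 1) per CpG with no coverage column; its depth is unknown, and counting intervals cannot be had. The peak lists give the authors' score per peak, 1 list per sample; the sources used here do not say whether calling used the input. Peak coordinates were read as BED and printed counting from 1. The deposited expression values are RPKM, read numbers divided by gene length and library size; no source used here says whether counting used the strand, so reads of overlapping or antisense genes may be mixed. Low RPKM values are whole multiples of 1 read: within 0.15 of a read, 19534 of 19566 genes above 0 in 3 or more libraries came out whole.

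Methylation was averaged over CpGs listed in all 3 libraries. Regions were linked to the nearest protein-coding or long noncoding gene of the expression files by its RefSeq span (GRCm38.p6) within 100 kb, in place of the planned nearest start site, because the start-site table covers 17801 of 24035 gene names. Of 24062 lines, 27 with names turned into dates were left out; a RefSeq symbol was found for 22550 names and a synonym for 1296. RNA was tested on log2(RPKM + 1) by limma's trend method (limma 3.58.1, R 4.3.3). Genes had to reach 1 RPKM in 3 or more libraries, the single fit held all 9 libraries with treatment alone, and calls were made at 0.05 after Benjamini-Hochberg adjustment over all genes. The test was also run on simulated normal values in which far fewer genes changed than were called here. That run does not cover the shifts with scaling seen in these data. Named genes were the 10 largest rises and falls with Bic/4AP among linked genes that passed and whose mean reached 5 RPKM in some group, and the linked activity and synapse genes; named regions were the 6 highest scores and the 6 largest Bic/4AP minus TTX differences each way at 10 or more CpGs. Genes of the promoter windows, of several regions or of both H3K4me1 lists, Tet2 and Map2 were named after their values were seen. The regions and gene lists were chosen with earlier results of these data known.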

Additional observations from a re-analysis of the deposited data

How the results depend on the processing

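The number of regions depended most on the peak lists. Leaving out 1 H3K27ac list at a time gave 465 to 19255 regions in place of 439, 1701 without the untreated replicate list and 19255 without the first Bic/4AP list. Sharing at least 50% of the peak left 181, a score of 100 or more in both lists 30, and 10 or more CpGs 278. The H3K4me1 share of 9.34% ranged from 4.95% to 28.3% over the left-out lists, and was 6.67% at scores of 100 or more, 12.6% at 10 or more CpGs, 1.82% with both H3K4me1 lists required and 4.33% in the central 500 bp. The start-site share of 5.69% ranged from 3.51% to 11.6% over the left-out lists, and was 3.31% at 50% overlap, 2.47% at an untreated mean of 0.50 or more, and 8.66% within 2.5 kb. In percentage points, Bic/4AP minus untreated (-0.087) and Bic/4AP minus TTX (-0.000611) moved to 0.624 and 0.645 in the 30 regions scoring 100 or more; the other alternatives gave -0.385 to 0.120 and -0.214 to 0.0943. TTX minus untreated ranged from -0.164 to 0.325 over all alternatives.

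Counting every gene within 100 kb gave 259 higher and 339 lower with Bic/4AP and 336 and 215 with TTX. The nearest start site in place of the span left 207 tested genes, 89 higher and 61 lower with Bic/4AP and 92 and 46 with TTX. At 2-fold the counts were 15 and 34 with Bic/4AP and 15 and 10 with TTX as deposited, 29 and 18, and 14 and 19, under quantile, and 26 and 19, and 10 and 20, under cyclic loess normalization, so both splits turned. The downward share of linked genes at 2-fold was below that of all genes under each scaling with both treatments. Leaving out 1 RNA library gave 112 to 142 linked genes higher and 108 to 114 lower with Bic/4AP, and 92 to 131 and 79 to 94 with TTX. Of all genes, 5227 were lower with TTX under cyclic loess in place of 3477. Log2 changes with Bic/4AP turned for Nlgn1 (-0.24 under quantile, -0.22 under cyclic loess), Sorcs3 (0.035 under quantile) and Map2 (from 0.46, called higher, to -0.09 and -0.26, called lower under both). Over 28 named genes, 411 values under alternatives kept direction and call, 6 lost the call and 3 turned; Map2 is not among the 28. The cause of these shifts was not tested.

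Same-numbered RNA libraries of different treatments had correlations of their deviations from the group means of -0.173 to 0.0434, so the numbers were not taken as pairs. With the replicate block the linked genes were 122 higher and 112 lower with Bic/4AP and 111 and 88 with TTX, and all genes 4348 and 6253, and 5954 and 3380. No coverage minimum could be varied, since none is given. The planned search for AP-1 motifs in the regions was not run, since no genome sequence was used here; promoter windows took its place. The start-site linking, the central 500 bp and the 2-fold limit were chosen after seeing the data.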
